A study of Mus musculus with 28 samples.

Results

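The super elongation complex (SEC) includes proteins of 4 small families beside P-TEFb. The genes of these families are described here in mouse embryonic stem cells (mESCs) with and without Elongin A. The genes were chosen by name: Ell, Ell2 and Ell3, Eaf1 and Eaf2, Aff1 and Aff4, and Mllt1 and Mllt3, which are 9 of the 24980 genes listed in the tables. All 9 were found. The assay was Bru-seq, a nascent RNA method: cells are fed 5-bromouridine (BrU) for a few minutes, and the RNA that incorporated it is captured with an antibody and sequenced. WT and EloA null mESCs were compared in 3 conditions, with 2 libraries per genotype and condition and 12 libraries in all. In steady state, cells received 2 mM BrU for 10 min. For recovery, cells were held in 1 µM flavopiridol (FP), an inhibitor of the kinase CDK9, for 60 min, washed, and given BrU for the next 5 min or 10 min. The pulse was therefore shorter in the 5-min recovery than in the other conditions. Both genotypes came from the same source and are named CCE28 in the growth notes, while the labelling notes name CJ7 cells. They were grown on fibroblast feeders with serum, LIF and the inhibitors PD0325901 and CHIR99021, and were depleted of feeders before labelling. Experiments were run in duplicate, described by the study as independent. Whether either genotype is 1 clone is not given in the sources used here, so that p-values measure the spread between these duplicates and not between clones.

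RNA polymerase II pauses shortly after it starts a gene, and is released when CDK9, the kinase of P-TEFb, phosphorylates the polymerase and the factors that hold it. In the SEC, AFF1 or AFF4 is the scaffold that binds P-TEFb, ELL proteins are elongation factors that raise the catalytic rate of the polymerase, EAF proteins bind and stimulate ELL proteins, and ENL or AF9, encoded by Mllt1 and Mllt3, tether the complex to chromatin through acetylated histones. Elongin A, encoded by Eloa, is another elongation factor, with an activity in the test tube like that of ELL. FP blocks the step on which the SEC acts, so a wash-out starts many genes together.

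Library sizes ran from 9857527 to 28547355 reads and were smallest in the 5-min recovery, where they ended at 17272752. The first steady-state library titled EloA null is marked wild type in its genotype field, and it was placed by its title. Nascent RNA of Eloa was higher in the libraries labelled EloA null, at 1.92 against 1.17 RPKM (reads normalized to gene length and library size) in steady state and by 0.77 (log2, SE 0.09, adjusted p = 3.51e-04 in limma) over the 3 conditions, so directions are given by label. The values do not resolve the deleted part. All 8 pluripotency markers were above 0.5 RPKM in every group. Their sums were 170 to 187 RPKM in libraries labelled EloA null against 170 to 175 RPKM for WT in steady state. They were 152 to 211 against 203 to 237 RPKM in the 5-min recovery and 246 to 255 against 256 to 291 RPKM in the 10-min recovery. Of the 8 feeder fibroblast markers, Col1a1 was highest, with group means of 0.467 to 1.23 RPKM, and was above 0.5 RPKM in WT in the 5-min recovery and in both genotypes in the 10-min recovery. The other 7 were under 0.5 RPKM in each group, and the means of Thy1 and Dcn were under 0.05 RPKM. Libraries labelled EloA null had feeder sums of 1.24 to 1.39 RPKM against 1.39 to 1.67 RPKM for WT in steady state, 0.753 to 1.06 against 1.33 to 1.46 RPKM in the 5-min recovery and 1.49 to 1.89 against 2.04 to 2.64 RPKM in the 10-min recovery. Their part in the results below was not tested.

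In steady state the SEC genes spanned more than an order of magnitude in nascent RNA per length. Aff1 (chromosome 5, 103692362 to 103855322 in GRCm38), which encodes a scaffold, was the highest, at 9.50 and 10.0 RPKM in WT and 9.17 and 10.5 RPKM in the libraries labelled EloA null. Eaf1 (chromosome 14, 31495079 to 31509858), which encodes an activator of ELL, came next, at 5.41 and 4.46 RPKM in WT and 7.03 and 6.04 RPKM in those labelled EloA null. In each library Aff1 stood above Eaf1, and Eaf1 above the remaining 7 genes. Ell2 (chromosome 13, 75707484 to 75772361), Mllt1 (chromosome 17, 56892608 to 56935509), Aff4 (chromosome 11, 53350640 to 53421830) and Ell (chromosome 8, 70539675 to 70592858) formed a middle group, with WT means between 2.24 and 2.83 RPKM. Among these 4, the WT libraries of Aff4 and Ell overlapped, while in the libraries labelled EloA null each gene overlapped with the next in order. Ell3 (chromosome 2, 121439027 to 121442601), Mllt3 (chromosome 4, 87769925 to 88033407) and Eaf2 (chromosome 16, 36792884 to 36875068) were lowest, with WT means of 0.928 ± 0.0736, 0.815 ± 0.0309 and 0.713 ± 0.00352 RPKM (SD, n = 2). The median WT level of the 11345 genes expressed in steady state, those with a mean above 0.5 RPKM in either genotype, was 1.80 RPKM, and 6 of the 9 SEC genes lay above it. Each family thus held a higher and a lower member, with Aff1 over Aff4, Eaf1 over Eaf2, Mllt1 over Mllt3, and both Ell and Ell2 over Ell3. Aff1 was counted over a model that starts at 103754162 and covers 101 kb. Eaf2 overlaps Iqcb1 on the other strand over 44360 bases, and reads of the pair cannot be told apart if the counting did not use strand. The libraries were directional, but whether the gene counts used it is not given. Mllt3 holds the lncRNA Gm34232 on its own strand over 26363 bases.

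**Figure D1:**
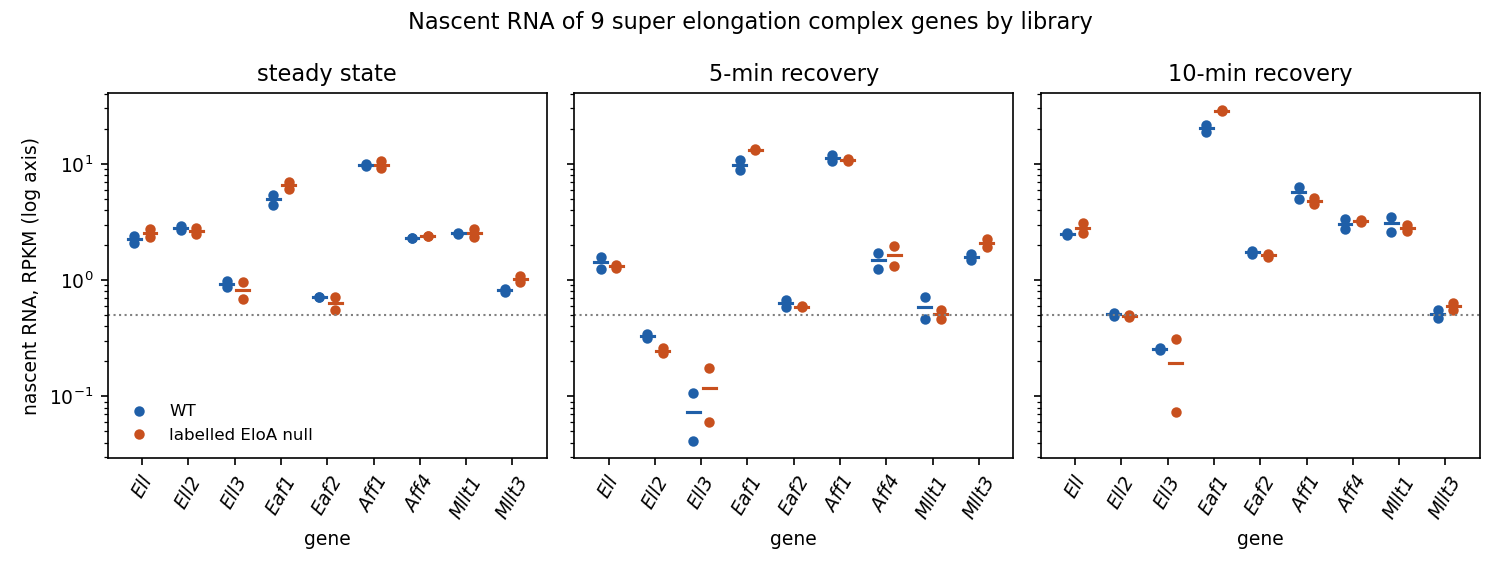
Nascent RNA of the 9 SEC genes in RPKM on a log axis, with each point a library, short bars the mean of 2 libraries, and the dotted line the 0.5 RPKM limit for expressed genes. Eaf1 lies below Aff1 in steady state and above it in the 10-min recovery, while Ell2 and Ell3 lie at the limit or below it after release.

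No SEC gene passed the adjusted p in steady state. With limma on log2(RPKM + 0.1), 0 of the 9 genes and 0 of 11345 genes (0%) did, while 2 of the 9 and 2083 genes (18.4%) had an unadjusted p under 0.05. No SEC gene was past 1.5-fold in either direction, against 7.21% of all genes higher and 2.10% lower. Eaf1 and Mllt3, which encodes the chromatin reader AF9, had the largest differences. In the libraries labelled EloA null Eaf1 was 1.32 times as high, a log2 difference of 0.40 (SE 0.14, adjusted p = 0.256). Mllt3 measured 0.793 and 0.837 RPKM in WT and 1.08 and 0.961 RPKM in those labelled EloA null, which gave a log2 difference of 0.29 (SE 0.11, adjusted p = 0.263). The genotypes did not overlap in either gene. Aff4 did not overlap either, at 2.28 and 2.30 against 2.40 and 2.39 RPKM, but its log2 difference was 0.06 (SE 0.07, adjusted p = 0.675). That makes 3 of 9 genes higher without overlap, where 32.0% of all genes were. Eaf2 was the only SEC gene lower without overlap (21.4% of all genes), at 0.711 and 0.716 against 0.709 and 0.557 RPKM, a gap that the first library labelled EloA null nearly closed. Its neighbour Iqcb1, which overlaps it, read 1.18 and 1.18 RPKM in WT and 1.16 and 0.901 RPKM in the libraries labelled EloA null. All 9 differences (log2) ran from -0.16 to 0.40 with a median of 0.01, beside a median of 0.03 over all genes. The widest 95% interval, that of Ell3, ran from -0.64 to 0.32 and the narrowest, that of Aff4, from -0.14 to 0.26. Whether fewer cells or less RNA per cell lie behind a level cannot be told apart in such bulk samples.

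The picture was much the same after release from FP. In the 5-min recovery 7 SEC genes were tested, because Ell2 and Ell3 were below 0.5 RPKM, and 0 passed the adjusted p, as did 0 of 8984 genes (0%). An unadjusted p under 0.05 was reached by 0 of the 7 and by 846 genes (9.42%). Eaf1 read 10.8 and 8.85 RPKM in WT and 13.1 and 13.3 RPKM in the libraries labelled EloA null, and Mllt3 read 1.49 and 1.68 against 2.25 and 1.93 RPKM. These 2 of 7 genes were higher without overlap, as were 15.4% of all genes, and 0 of 7 were lower, against 25.0%. In the 10-min recovery 8 SEC genes were tested, without Ell3, and again 0 passed the adjusted p, as did 0 of 10239 genes (0%), with 1 of the 8 and 2098 genes (20.5%) at an unadjusted p under 0.05. That gene was Eaf1, at 21.6 and 18.7 RPKM in WT and 29.0 and 28.4 RPKM in those labelled EloA null, a ratio of 1.42 and a log2 difference of 0.51 (SE 0.11, adjusted p = 0.136). Its genotypes lay apart, which made 1 of 8 genes higher without overlap where 33.5% of all genes were. For Mllt3 the genotypes touched, at 0.473 and 0.558 against 0.558 and 0.632 RPKM. No SEC gene was past 1.5-fold at either time, against 5.40% of all genes higher and 6.72% lower in the 5-min recovery and 9.41% and 3.01% in the 10-min recovery. The scaffold genes Aff1 and Aff4 differed by -0.23 (log2, 95% interval -0.64 to 0.18) and by 0.08 (-0.26 to 0.43) in the 10-min recovery. The 2 genes of the ELL family tested there, Ell and Ell2, differed by 0.17 (-0.18 to 0.52) and -0.04 (-0.49 to 0.40). Intervals of this width leave room for changes of some size in either direction. Ell2 passed the 0.5 RPKM limit in the 10-min recovery only through WT, with means of 0.507 in WT and 0.490 RPKM in the libraries labelled EloA null. The filter thus favours a lower value of Ell2 in those libraries, and its difference there is description only.

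When the 12 libraries were fitted together, with condition as a factor, the genotype difference averaged over the 3 conditions could be tested for 7 SEC genes. Eaf1 and Mllt3 rose in the libraries labelled EloA null and the other 5 did not pass. The average log2 difference of Eaf1 was 0.45 (SE 0.07, adjusted p = 0.00243) and that of Mllt3 was 0.28 (SE 0.07, adjusted p = 0.0207). Among all 8216 genes 954 (11.6%) were higher and 872 (10.6%) lower, a split that became 863 and 426 once a trend with GC content was removed. The SEC genes, with 2 of 7 higher and 0 of 7 lower, stand beside these shares. Eaf1 was the only SEC gene whose genotypes did not overlap in any of the 3 conditions, and it was higher in each. Of all genes, 8.79% were higher in this way and 10.1% lower, against 1 and 0 of the 7. Without the steady-state library of conflicting labels, Eaf1 still differed by 0.43 (adjusted p = 0.00783) and Mllt3 by 0.26 (adjusted p = 0.0498). The call for Mllt3 did not survive a centring of each library on its median, where its difference was 0.26 (adjusted p = 0.0713), and over 21 alternatives its adjusted p ran from 0.00130 to 0.0713. Eaf1 passed under all 22 alternatives, with adjusted p from 0.00105 to 0.00899. The remaining averages were 0.09 for Ell (SE 0.09), 0.09 for Aff4 (SE 0.10), -0.08 for Mllt1 (SE 0.10), -0.10 for Aff1 (SE 0.08) and -0.11 for Eaf2 (SE 0.07). The median of the 7 was 0.09, beside 0.00 over all genes.

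The rise of Eaf1 was shared by the chromosome on which it lies. The median log2 difference of the other genes of chromosome 14 was 0.50 in steady state, 0.46 in the 5-min recovery and 0.51 in the 10-min recovery, against 0.02, -0.07 and 0.05 on the other chromosomes. Eaf1, at 0.40, 0.43 and 0.51, was at or below these medians, and 275 of 415 genes of the chromosome exceeded it in steady state. Over the 3 conditions, 77.7% of the other genes of chromosome 14 were called higher, against 8.93% elsewhere. All 22 tested genes within 1 Mb of Eaf1 had an average difference above 0, with a median of 0.51. The part of this shift in the difference of Eaf1 was not tested. The other genes of chromosome 4, that of Mllt3, showed no such shift. Their median was -0.02 over the 3 conditions, and 52 of 519 of them exceeded Mllt3. In the single conditions 133 of 721, 36 of 563 and 212 of 654 did, and in the 10-min recovery Mllt3, at 0.18, lay within their quartiles of -0.14 and 0.26. Of the 3 tested genes within 1 Mb of Mllt3, 2 were above 0, with a median of 0.11.

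**Figure D2:**
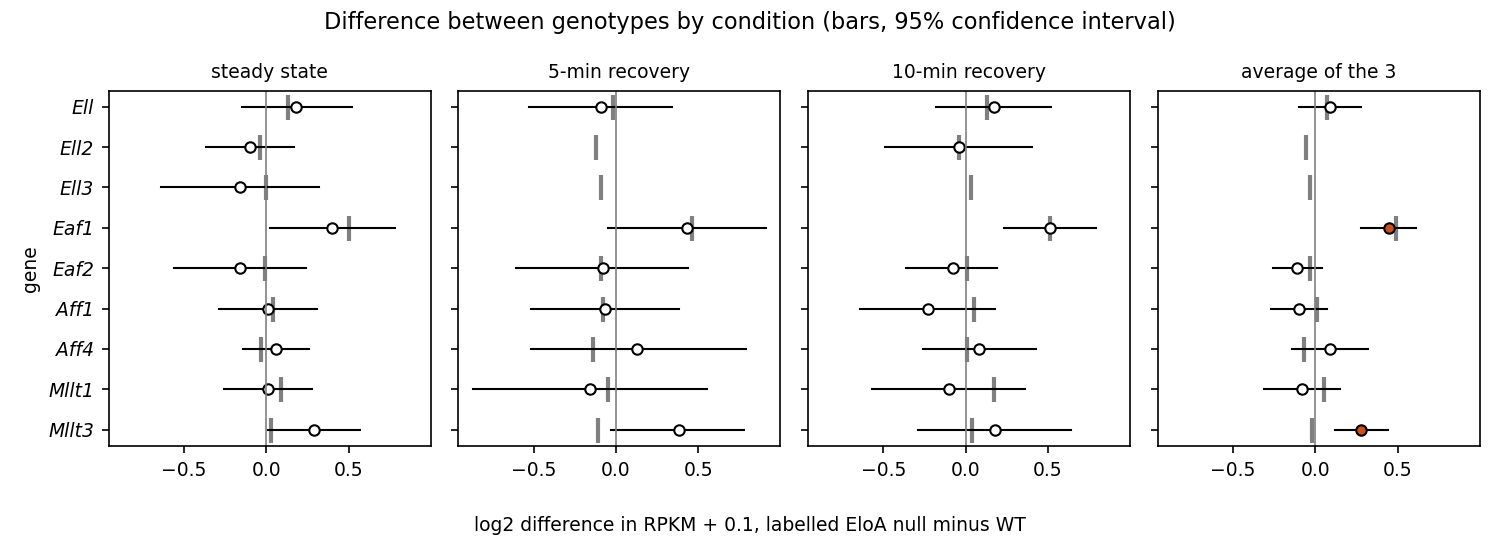
Log2 difference in RPKM + 0.1 between libraries labelled EloA null and WT for each SEC gene, by condition and as the average of the 3, with bars the 95% confidence interval, filled points those past the adjusted p, and grey ticks the median of the other genes of the same chromosome. Eaf1 lies near the tick of chromosome 14 in each panel, and Mllt3 lies to the right of the tick of chromosome 4, by least in the 10-min recovery. Genes without a point were below the expression limit.

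No difference between conditions was found in these genotype differences. In the fit of all 12 libraries, 0 of 7 SEC genes passed the adjusted p for the change from steady state to the 5-min recovery, against 5 of 8216 genes (0.0609%), and 0 of 7 reached an unadjusted p under 0.05, against 5.36%. For the 10-min recovery the counts were 0 of 7 and 0 of 8216 (0%), with 0 of 7 and 1.25% at an unadjusted p under 0.05. The change for Eaf1 was 0.03 (log2, 95% interval -0.44 to 0.49) and 0.11 (-0.35 to 0.58), and for Mllt3 it was 0.09 (-0.34 to 0.51) and -0.11 (-0.54 to 0.31).

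After release from FP, several SEC genes stood far from their steady-state level in both genotypes. The tables were normalized separately, so the ratios of one to another are values side by side, without a test, and each is set beside genes of its own length. Leaving aside Ell3, which had few reads, Eaf1 had the highest WT mean ratio at both times and Ell2 the lowest, though Mllt3 was within the spread of Eaf1 in the 5-min recovery. Eaf1, with a counted model of 14.8 kb, stood at 1.99 ± 0.280 times its WT steady-state mean in the 5-min recovery and at 4.08 ± 0.423 times in the 10-min recovery (SD, n = 2). Genes of 10 to 30 kb had medians of 0.564 and 1.5, and Eaf1 exceeded 94.7% and 98.2% of the other 3547. Ell2, of 64.9 kb, stood at 0.118 ± 0.00678 and 0.180 ± 0.00688 times its WT mean (SD, n = 2). Genes of 60 to 100 kb had medians of 0.565 and 0.582, and 0% and 1.61% of the other 992 lay below Ell2. The low level of Ell2 in the 5-min recovery rested on 190 to 269 reads per library, against 3947 to 5034 in steady state. Libraries labelled EloA null gave ratios of 2.02 and 4.39 for Eaf1 and 0.0941 and 0.186 for Ell2, with Mllt3 at 2.05 beside Eaf1 in the 5-min recovery.

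Since these 2 genes had the highest and lowest WT mean ratios with Ell3 left aside, the 250 bases before their start sites are shown, 5′ to 3′ on the strand of the gene, from the RefSeq table of GRCm38.p6. The stretch lies at chr14:31494829-31495078 (+) for Eaf1 and at chr13:75707234-75707483 (+) for Ell2. Capitals mark matches on either strand to any of 5 motifs of promoters, which were picked after the sequences had been read. They were TATAAA as the core of the TATA box, the letters CCAAT, the GC box spelled GGGCGG, and the ETS family core CGGAAG. The last was the palindromic cyclic AMP response element, TGACGTCA.
Eaf1: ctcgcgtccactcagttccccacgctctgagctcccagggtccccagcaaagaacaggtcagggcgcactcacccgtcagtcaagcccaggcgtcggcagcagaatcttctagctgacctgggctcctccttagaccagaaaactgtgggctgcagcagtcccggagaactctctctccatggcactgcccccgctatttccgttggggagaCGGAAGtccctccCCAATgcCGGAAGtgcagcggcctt
Ell2: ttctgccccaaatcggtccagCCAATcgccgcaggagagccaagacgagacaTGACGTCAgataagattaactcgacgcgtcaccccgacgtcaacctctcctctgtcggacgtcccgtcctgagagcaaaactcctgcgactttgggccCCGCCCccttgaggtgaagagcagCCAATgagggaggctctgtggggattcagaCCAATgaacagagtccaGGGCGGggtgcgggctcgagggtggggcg
Eaf1 held 1 CCAAT box and 2 ETS motifs, and Ell2 held 3 CCAAT boxes, 2 GC boxes and 1 cyclic AMP response element. The TATA box was in neither. Of 32851 promoter stretches of this length, 33.8% held the CCAAT box, 32.7% the GC box, 13.6% the ETS motif, 1.55% the cyclic AMP response element and 12.4% the TATA box. The dinucleotide CG occurred 13 times in Eaf1 and 19 times in Ell2, against a median of 6 over all. Of the 9 SEC genes, all of which matched this table, Ell2 was the only member with the cyclic AMP response element.

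The partner of Eaf1 also stood high late in the recovery. Eaf2, of 81.9 kb, was at 0.886 ± 0.0795 times its WT mean in the 5-min recovery and at 2.43 ± 0.112 in the 10-min recovery (SD, n = 2), above 82.5% and 99.6% of genes of its length. Its libraries read 0.672, 0.592, 0.593 and 0.588 RPKM at the earlier time and 1.79, 1.67, 1.58 and 1.68 RPKM at the later, in the order WT and labelled EloA null. Iqcb1 on the other strand had the same course, from 0.95, 0.794, 0.802 and 0.790 to 2.96, 2.75, 2.53 and 2.69 RPKM, with a Pearson r of 0.990 on the log2 scale over the 12 libraries, which share their conditions. Reads that belong to Iqcb1 could be among those of Eaf2.

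The 2 longest members were higher at the earlier time. Mllt3, of 263 kb, stood at 1.95 ± 0.158 times its WT mean in the 5-min recovery and 0.632 ± 0.0738 in the 10-min recovery, and Aff1, of 101 kb, at 1.15 ± 0.108 and 0.581 ± 0.0963 (SD, n = 2). Genes over 100 kb shared this order, with medians of 1.17 and 0.658. Mllt3 exceeded 86.7% of them at the first time and 44.9% at the second, and Aff1 48.3% and 36.7%. The scaffold gene Aff4, of 71.1 kb, stood at 0.645 ± 0.143 and then at 1.34 ± 0.189 (SD, n = 2), above 61.3% and then 96.8% of genes of its length. In WT, Aff1 thus stayed within the quartiles of its length class at both times, while Aff4 lay above the upper quartile of its own, 0.803, in the 10-min recovery. The place of Aff1 at the earlier time depends on the 100 kb edge, which its model just passes. Genes of 60 to 100 kb had WT quartiles of 0.403 and 0.789 in the 5-min recovery, below Aff1 at 1.15. In the 10-min recovery they were 0.431 and 0.803, on either side of Aff1 at 0.581.

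Mllt1, of 42.8 kb, was low at the earlier time and near or above its steady-state level at the later. Its libraries read 0.709, 0.467, 0.552 and 0.464 RPKM in the 5-min recovery and 3.52, 2.61, 2.99 and 2.65 RPKM in the 10-min recovery, in the same order of genotypes. As ratios these were 0.234 ± 0.0680 and 1.22 ± 0.257 in WT (SD, n = 2), above 11.6% and 74.2% of genes of 30 to 60 kb. The WT ratio of Mllt1 in the 10-min recovery was also divided by the median ratio of genes under 10 kb expressed in both conditions. It was then 0.899, so its place above 1 depends on the scaling between tables. With expression required in steady state only, the WT median of genes under 10 kb was 1.20, so the set chosen matters as well. Ell, of 53.2 kb, stood at 0.635 ± 0.105 and 1.12 ± 0.0403 in WT (SD, n = 2), above 73.8% and 68.3% of the same class. Ell3, the ELL family member of 3.58 kb, was low after release, on few reads. Its values in the 5-min recovery rested on 1 to 4 reads per library and in the 10-min recovery on 4 to 12, against 37 to 47 in steady state. With the reads of both WT libraries pooled, the ratio per library size was 0.0750 (95% exact binomial interval 0.0152 to 0.226, counting error only) in the 5-min recovery and 0.276 (0.161 to 0.451) in the 10-min recovery. In all 4 libraries of the 5-min recovery, 3 of the 9 genes stood above their steady-state mean, namely Eaf1, Aff1 and Mllt3, and in all 4 of the 10-min recovery 4 did, namely Eaf1, Eaf2, Aff4 and Mllt1. The same division left 2 of these 4. The share of all genes above steady state in all 4 libraries was not counted at either time. In WT, the median of genes over 100 kb, the class of Aff1 and Mllt3, was itself above steady state in the 5-min recovery. So was that of genes of 10 to 30 kb, the class of Eaf1, in the 10-min recovery. For the other members named at each time, the median of the class was below steady state.

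**Figure D3:**
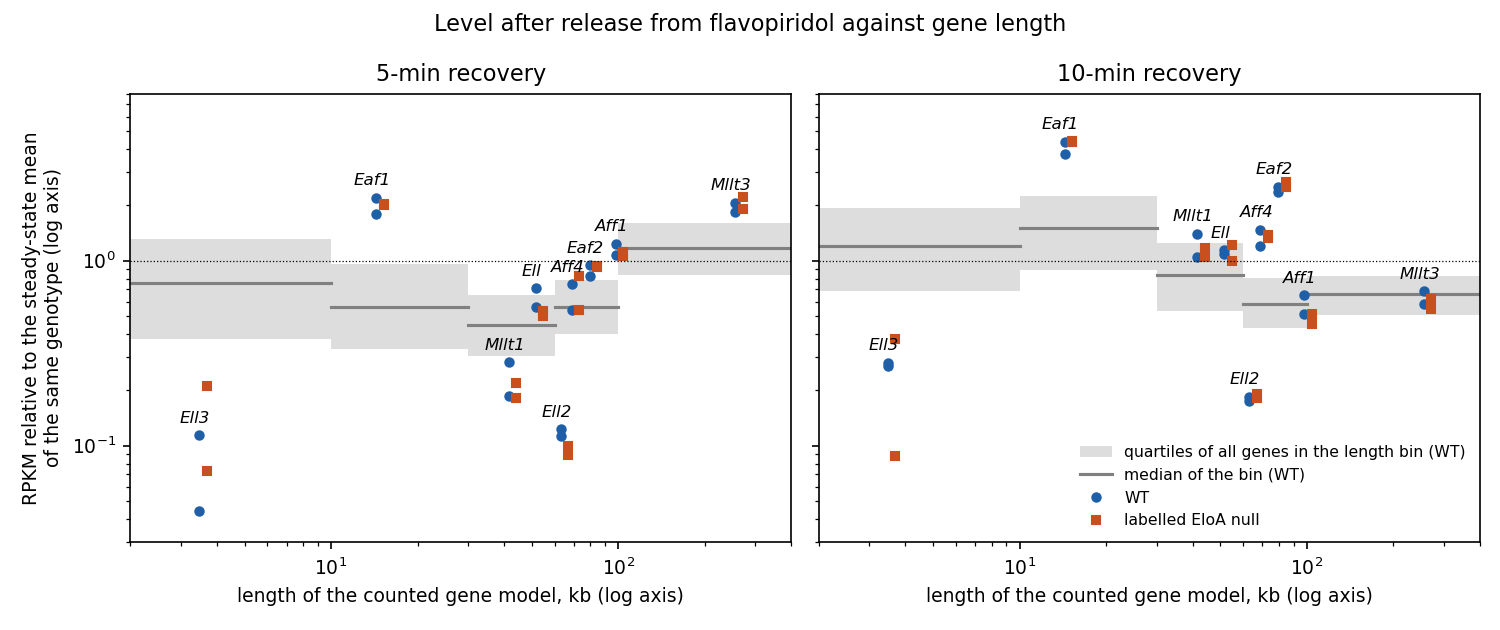
Level in the 5-min and 10-min recovery relative to the steady-state mean of the same genotype, on a log axis, against the length of the counted gene model in kb, also on a log axis, with each point a library, grey lines the WT median of all expressed genes in a length bin and grey bands its quartiles. Eaf1 lies above the band of its bin at both times and Ell2 below it, and points of Ell3 rest on 1 to 12 reads.

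Ratios between members of a family are taken within a library, so the scaling of the tables drops out of them. Gene length does not drop out. In WT, genes of 30 to 60 kb stood at medians of 0.449 and then 0.832 times steady state in the 5-min and 10-min recovery. Genes over 100 kb stood at 1.17 and then 0.658. Mllt1 has a model of 42.8 kb and Mllt3 one of 263 kb. The part of length in the change of these ratios between conditions was not tested. Eaf1 to Eaf2 was 7.62 and 6.23 in WT and 9.92 and 10.8 in the libraries labelled EloA null in steady state, 16.1 and 15.0 against 22.1 and 22.6 in the 5-min recovery, and 12.1 and 11.2 against 18.4 and 16.9 in the 10-min recovery. The genotypes lay apart in all 3 conditions, though 2 libraries against 2 cannot give an exact two-sided permutation p below 0.333. Eaf1 lies on chromosome 14, whose genes were higher as given above, and the part of this in the ratio was not tested. Genotypes also lay apart for Mllt1 to Mllt3 in steady state and in the 5-min recovery, and for Aff1 to Aff4 and Ell to Ell2 in the 10-min recovery. They overlapped for those pairs in the remaining conditions, and for Ell to Ell3 in each. How often ratios of other genes lie apart was not counted. Among single genes, 32.0% were higher and 21.4% lower without overlap in steady state. The shares were 15.4% and 25.0% in the 5-min recovery and 33.5% and 21.8% in the 10-min recovery. The order of Mllt1 and Mllt3 depended on the condition. Mllt1 was the higher of this pair in steady state, with ratios of 2.20 to 3.22, and in the 10-min recovery, with 4.19 to 7.45, while Mllt3 was the higher in the 5-min recovery, with 0.241 to 0.474. Ell to Ell2 was 0.703 to 1.12 in steady state, 3.62 to 5.79 in the 5-min recovery and 4.66 to 6.22 in the 10-min recovery, so that Ell, close to Ell2 in steady state, was the higher in every recovery library. Aff1 to Aff4 was 3.81 to 4.41 in steady state, 5.28 to 8.41 in the 5-min recovery and 1.42 to 1.88 in the 10-min recovery. Aff1 remained the higher scaffold gene in each library.

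**Figure D4:**
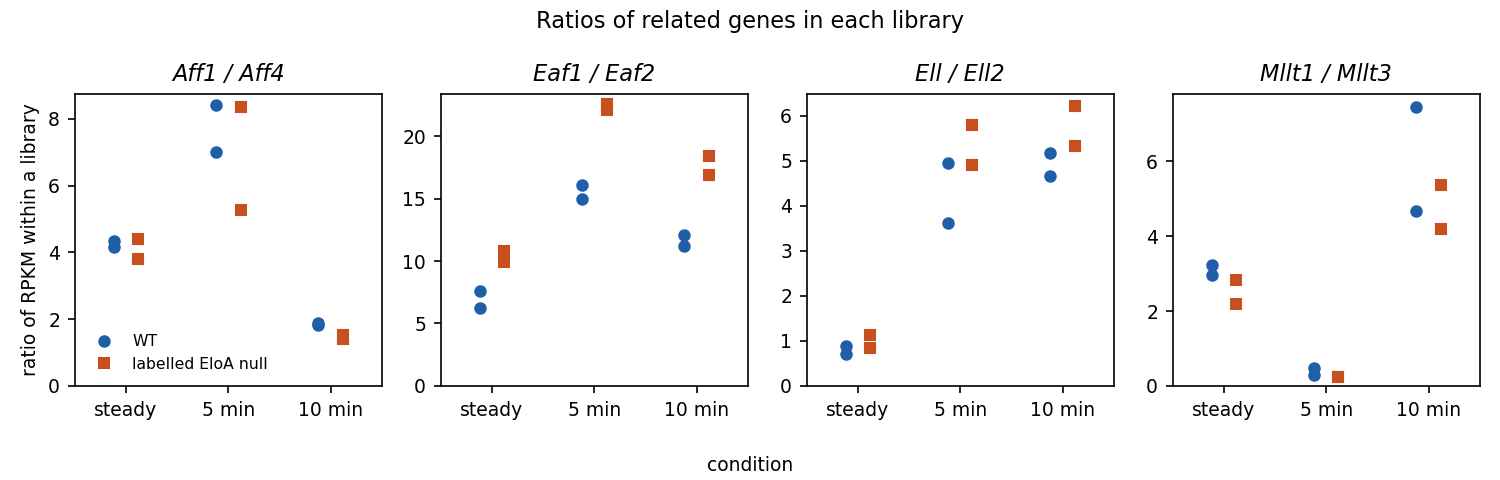
Ratios of RPKM between related SEC genes within each library, by condition, with each point a library and each axis starting at 0. Eaf1 to Eaf2 lies higher in the libraries labelled EloA null in each condition, and Mllt1 to Mllt3 is below 1 in the 5-min recovery.

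The course over the 12 libraries separated the SEC genes from one another, as far as 3 conditions can. On the log2 scale, the level of Ell had a Pearson r of 0.961 with Mllt1 and of -0.896 with Mllt3, and the level of Eaf2 had an r of -0.964 with Aff1. Ell2 and Ell3 had an r of 0.931, where Ell3, here and below, rests on 1 to 12 reads per library after release. The libraries share conditions and tables, so these describe the order of the conditions. Among 8215 other genes, those most like Eaf1 were Med4 (r = 0.997), a Mediator subunit, and Nedd8 (r = 0.991), a ubiquitin-like modifier, both on chromosome 14. Those most like Mllt3 were Zranb3 (r = 0.992) and Tbc1d19 (r = 0.986), and those most like Aff1 were Ehmt1 (r = 0.993) and Pds5b (r = 0.989). The 4 have models of 94.8 to 149 kb. For Ell2 they were Rsf1os1 (r = 0.997) and Atf7ip (r = 0.996), and for Ell Dync1h1 (r = 0.994) and Bcl3 (r = 0.992). For Eaf2 they were Sec62 (r = 0.998) and Uchl5 (r = 0.996), for Aff4 Srrm1 (r = 0.983) and Cul4b (r = 0.982), for Mllt1 Nrde2 (r = 0.998) and Osbp (r = 0.997), and for Ell3 Dpy19l4 and Ints4 (r = 0.962 each). Likeness was common, since between 205 genes (Aff1) and 1562 genes (Mllt1) had an r above 0.9 with a given member.

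No partner of the SEC was called in the comparison of genotypes. A list of 16 comprised P-TEFb and its regulators, the other AFF genes, the little elongation complex, the DOT1L complex, Med26 and Kmt2a. Of these, 14, 12 and 13 were tested in the 3 conditions and 12 on average, and 0 passed the adjusted p in either direction in any of the 4 tests. Among all genes 11.6% were higher and 10.6% lower on average, and 0% in each separate condition, so the counts of 0 in those conditions say nothing about the partners. None was past 1.5-fold, against 7.21%, 5.40% and 9.41% of all genes higher and 2.10%, 6.72% and 3.01% lower in the 3 conditions, and the median of the 12 on average was -0.01, beside 0.00 over all genes. The nearest to the threshold was Mllt10, a cofactor of DOT1L, at -0.21 (SE 0.07, adjusted p = 0.0536). Aff2 and Aff3, the remaining scaffold paralogs, were at most 0.0312 and 0.182 RPKM in any library, so that Aff1 and Aff4 were the AFF genes with appreciable nascent RNA. Ice2, a subunit of the little elongation complex, was low after release. It read 1.25 to 1.5 RPKM in steady state, 0.215 to 0.305 RPKM in the 5-min recovery and 0.277 to 0.340 RPKM in the 10-min recovery. Zc3h8, of the same complex, shared the low level in the 5-min recovery but not in the 10-min recovery, and Ice1 fell as far at neither time. Ice1 read 3.23 to 3.61, 2.33 to 2.71 and 3.66 to 4.24 RPKM in the same order of conditions. Zc3h8 read 1.12 to 1.40, 0.181 to 0.401 and 1.19 to 1.59 RPKM. These levels were not set beside genes of the same length. Cdk9 itself read 4.80 and 3.72 RPKM in WT and 4.73 and 5.40 RPKM in the libraries labelled EloA null in steady state, and 10.9, 11.5, 16.1 and 13.0 RPKM in the 10-min recovery, with an average difference of 0.20 (SE 0.13, adjusted p = 0.287).

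Of 13 immediate early, heat shock and retinoid-induced genes known as targets of the SEC, most had little nascent RNA in these uninduced cells. The tests covered 4, 3 and 5 of them in the 3 conditions and 3 on average. Ier2, an immediate early gene, rose in the libraries labelled EloA null on average, by 0.53 (log2, SE 0.17, adjusted p = 0.0496), which made 1 of 3 higher beside 11.6% of all genes, and 0 of the 3 fell. Its steady-state values were 2.89 and 3.41 RPKM in WT and 4.12 and 5.59 RPKM in the libraries labelled EloA null. Myc, the growth regulator, differed by 0.62 (SE 0.23, adjusted p = 0.0785), with 0.364 and 0.345 against 0.895 and 1.07 RPKM in the 10-min recovery. In steady state it read 0.430 and 0.477 against 0.542 and 0.925 RPKM. In both conditions Myc passed the 0.5 RPKM limit only through the libraries labelled EloA null. The filter thus favours a rise of Myc there and on average, and its values are description only. Ier2 and Myc were past 1.5-fold without overlap in steady state and in the 10-min recovery. Of all genes, 7.21% and 9.41% were past 1.5-fold higher and 32.0% and 33.5% were higher without overlap. In the 5-min recovery their genotypes overlapped, with differences of 0.18 for Ier2 and 0.07 for Myc, whose libraries read 0.579 and 0.691 RPKM in WT and 0.990 and 0.440 RPKM in those labelled EloA null.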

How the data were processed

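Bru-seq libraries were the only samples analysed here; the 16 CUT&RUN-seq and ChIP-seq samples were not. The authors aligned paired-end reads to mm10 and dm3 with Bowtie2 2.3.4.3, retained unique alignments, assigned them to RefSeq genes with featureCounts 1.6.1, normalized them with edgeR and deposited RPKM values in 1 table per condition, with replicates apart. Libraries were directional and the strands were separated with SAMtools, but whether the gene counts used strand, the RefSeq release and the scaling between tables are not given in the sources used here. The paper describes a pool of BrU-labelled Drosophila spike-in RNAs put into every sample's total RNA. Whether they entered the scaling is not given, and they were not used here. Ribosomal RNA was depleted after the capture. A gene's length was taken as its introns with 1 flanking exon base on either side, which gave library sizes and reads per gene. This was checked in genes with 1 NM or NR transcript in RefSeq, an intron and a value above 0. There were 9446 to 10546 such genes per library. With this length, RPKM values came out as whole reads within 0.02 for 98.8% to 99.1% of them. Genes with more transcripts or without introns were not in this check. No count test was run, since the deposited unit is RPKM. Of 24984 rows, 4 with repeated names were left out, and 24825 genes were matched to RefSeq GRCm38 by current or older symbol. Replicates differed by more than counting error (chi-square per degree of freedom 6.86 to 16.2).

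Genes with a mean above 0.5 RPKM in either genotype were tested with limma 3.58.1 in R 4.3.3 on log2(RPKM + 0.1) with an intensity trend, a scale that understates changes of low genes, with Benjamini-Hochberg adjustment over all genes tested at a threshold of 0.05. Each table was fitted on its own, and all 12 libraries together with condition as a factor for the averaged difference and with an interaction for its change. The fits were tested on simulated data. Same-numbered libraries of the 2 genotypes deviated together (correlation 0.101, 0.119 and 0.103 in the 3 conditions); the labels do not say what a number marks. Alternatives covered the pseudocount, the filter, scaling, GC content, a replicate block, robust variances, a joint fit and leaving out each library. The named genes were all 9 members, Eloa, the lists of partners, targets and markers, and the 2 genes most like each member. Iqcb1 was added after its values were seen. Members and lists were chosen with earlier results of these data known.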

Additional observations from a re-analysis of the deposited data

How the results depend on the processing

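With 2 libraries per group, small differences could not be resolved, and Ell3 after release rested on too few reads for a level. No SEC gene passed the adjusted p in a separate table under any alternative run, nor within a condition when all 12 libraries were fitted together. With the replicate block Eaf1 (0.45, adjusted p = 0.00253) and Mllt3 (0.28, adjusted p = 0.0318) remained called on average, and pairing changed no call of a member in a separate table. The joint fit called 94 higher and 38 lower of all genes in steady state, 256 and 276 in the 5-min recovery and 188 and 76 in the 10-min recovery, where the separate fits called 0. Without the expression filter, the average calls over all genes were 1983 higher and 1378 lower. In the 5-min recovery the block moved the calls over all genes from 0 to 65 higher and 63 lower.

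The count of SEC genes past the adjusted p on average, 2, became 1 with a mean above 1 RPKM, where Mllt3 could not be tested, 1 with median centring and 1 with quantile normalization (Mllt3 0.26, adjusted p = 0.0606), and 4 under the replicate block with the GC trend removed, which added Aff4 (0.20, adjusted p = 0.0403) and Mllt1 (-0.21, adjusted p = 0.0446). For the centrings and the GC trend the cause was not tested. The count of SEC genes above 1 in all 4 libraries of the 10-min recovery, 4, became 2 after a division. The divisor was the median ratio of genes under 10 kb expressed in both steady state and the 10-min recovery. The share over all genes was not counted.

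Differences near 0 that were never called changed sign as follows, on the log2 scale. In steady state, Aff1 and Mllt1 were -0.05 and -0.05 with median centring and -0.05 and -0.03 with quantile normalization. With the GC trend removed, and also under the replicate block with it removed, Ell2 was 0.07, Eaf2 0.06 and Mllt1 -0.14 in steady state, Ell2 0.13 and Eaf2 0.12 in the 10-min recovery, Ell -0.01 and Eaf2 0.02 on average, and the change of Mllt3 from steady state to the 5-min recovery -0.01. With quantile normalization Eaf2 was 0.01 in the 5-min recovery, Aff4 -0.00 in the 10-min recovery (-0.01 with median centring) and the change of Eaf1 from steady state to the 5-min recovery -0.00. With each library left out in turn, Ell3 ran from -0.38 to 0.06, Aff1 from -0.09 to 0.11 and Mllt1 from -0.08 to 0.11 in steady state. In the 5-min recovery Ell ran from -0.25 to 0.07, Aff1 from -0.16 to 0.03, Aff4 from -0.15 to 0.42 and Mllt1 from -0.42 to 0.10, and in the 10-min recovery Aff4 ran from -0.06 to 0.22 and Mllt1 from -0.31 to 0.11. The averages of Eaf1 and Mllt3 stayed between 0.41 and 0.49 and between 0.16 and 0.38 over all alternatives run.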
